A study of Mus musculus with 6 samples.

Results

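The HOX genes of the mouse were described in spinal cord tissue from the cervical level, with and without a contusion. All genes of the deposited count tables whose symbol is Hox, a letter from a to d and digits only were taken, without regard to their values. The rule found 39 genes among the 43432 in the tables: 11 in the HOXA cluster (chr6:52155590-52260880 on GRCm38), 10 in HOXB (chr11:96194316-96368256), 9 in HOXC (chr15:102921103-103036852) and 9 in HOXD (chr2:74668310-74765142).

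The series compared the acute response to injury in wildtype C57BL/6 mice. Tissue was taken 4 h after a 50 kdyn contusion of one side of the cord at cervical level 5, made with the Infinite Horizon impactor (SCI, n = 3 mice). Control mice had a laminectomy, the opening of the bone over the cord, and no blow (sham, n = 3 mice). Age, the length of cord taken and the time at which sham mice were sampled are not stated in the labels.

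HOX genes encode homeodomain transcription factors that give cells of the embryo their position along the body axis. Their order along the chromosome matches the order of their domains from head to tail, so that genes with low paralog numbers reach furthest forward and genes with high numbers are limited to the trunk, lumbar and tail levels. In the spinal cord they set the identity of motor neuron columns: Hoxa5 and Hoxc5 act in phrenic motor neurons, Hoxc6 and Hoxc8 in motor neurons of the forelimb levels, Hoxc9 at thoracic levels, and Hoxa10, Hoxc10 and Hoxd10 at lumbar levels. Adult neurons and glia keep part of this code.

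An example from the posterior end of the code is a pair of neighbouring genes in HOXD. Hoxd9 had counts in all 6 libraries, although few (8, 19 and 9 in sham, 27, 6 and 9 in SCI). Hoxd10, whose start lies 5.803 kb away, had 0 counts in all 6. Below are the 250 bases before the RefSeq start of each on GRCm38.p6, chr2:74697513-74697762 for Hoxd9 and chr2:74691641-74691890 for Hoxd10, both on the plus strand and with CpG dinucleotides in capitals.
Hoxd9: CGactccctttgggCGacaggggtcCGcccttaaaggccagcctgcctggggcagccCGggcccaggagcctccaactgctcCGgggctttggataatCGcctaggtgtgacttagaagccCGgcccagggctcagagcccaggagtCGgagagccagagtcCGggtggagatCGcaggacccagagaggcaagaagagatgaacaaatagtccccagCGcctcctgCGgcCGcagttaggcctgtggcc
Hoxd10: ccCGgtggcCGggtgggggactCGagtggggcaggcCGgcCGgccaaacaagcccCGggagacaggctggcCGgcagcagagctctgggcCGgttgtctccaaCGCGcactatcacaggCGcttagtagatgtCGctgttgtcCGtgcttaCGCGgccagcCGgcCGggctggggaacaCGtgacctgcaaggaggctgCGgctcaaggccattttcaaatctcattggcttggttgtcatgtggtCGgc
The Hoxd9 stretch held 13 CpG dinucleotides and the Hoxd10 stretch held 20, so the gene without counts had the more CpG-rich of the pair. Such windows of 250 bases were taken from the RefSeq promoter table, which held 22 of the 39 genes. Their 24 windows had a median of 12.5 CpG, against 6 over all 32851 windows. The 8 windows of genes that were never counted had a median of 16.5 CpG (range 2 to 35), and the 11 windows of genes abundant enough to be tested had a median of 8 (range 3 to 28). The never-counted windows came mostly from HOXD, with Hoxd11 entered more than once, and none came from HOXC or Hoxb13. Among tested genes, Hoxc8, Hoxb5, Hoxc6 and Hoxb9 had no window. The medians therefore cover the clusters unevenly and do not describe all silent or expressed HOX genes. The letters TGATNNAT, the form in which PBX and HOX proteins bind together, were found on either strand in 4 of the 24 windows (16.7%) and in 7.68% of all windows. The homeodomain core TAATNA, whose matches can share bases with those of TGATNNAT, was found in 25% and 24.3%, and the CCAAT box in 58.3% and 33.8%.

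The clusters also hold microRNA genes, whose mature products repress HOX transcripts. Mature sequences are printed from RefSeq with the seed, bases 2 to 8, in capitals, because the seed is what their targets share.
miR-10a-5p: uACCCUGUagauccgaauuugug
miR-10b-5p: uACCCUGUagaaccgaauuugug
miR-196a-5p: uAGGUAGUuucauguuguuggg
miR-196b-5p: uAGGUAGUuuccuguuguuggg
The miR-10 pair has 1 seed and the miR-196 pair has another. The letters ACTACCT, the complement of the miR-196 seed, occurred in the annotated 3′ UTRs of 9 of the 39 HOX genes (23.1%) and of 6.10% of 21039 genes. Among 3342 genes with UTRs of similar length to those of the HOX genes the share was 3.68%. ACAGGGT, which pairs with the miR-10 seed, occurred in 4 of the 39 (10.3%) and in 12.5% of all genes. Hoxa7 and Hoxc8, which were among the most abundant HOX genes here, held 4 and 2 of the miR-196 matches. Each is shown as 22 bases of the UTR with the match in capitals, at its distance in bases from the UTR's first base.
Hoxa7 site at base 310: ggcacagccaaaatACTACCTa
Hoxa7 site at base 347: agaggcactcccaaACTACCTa
Hoxa7 site at base 479: aaaccatgatcaatACTACCTa
Hoxa7 site at base 500: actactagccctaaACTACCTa
Hoxc8 site at base 135: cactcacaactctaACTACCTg
Hoxc8 site at base 892: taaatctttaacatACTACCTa
A match is a description of the letters and does not show that the site is used. The 6 microRNA genes inside the clusters had 0 counts, and libraries primed on poly(A) do not measure mature microRNAs.

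Depth ranged from 3407176 counts in sham 3 to 11543633 in sham 2. Levels are in CPM, counts set relative to the depth of each library with TMM scaling factors. They come from tags near the 3′ end of transcripts, so they do not grow with transcript length. Comparisons between genes still depend on annotated 3′ ends and on overlapping genes, for which no correction was made. Transcripts of 17 hepatocyte markers took 6.82% to 12.6% of all counts in sham and 8.57% to 9.03% in SCI. The highest share was in sham 2, and the source of these transcripts was not tested. In the whole tables, 120 genes were higher and 6 lower after SCI among 13560 tested.

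HOX counts covered paralog groups 1 to 10 and centred on groups 4 to 9. Of the 39 genes, 28 had at least 1 count, 23 had counts in every library and 11 had none. Over all genes, 21524 of 43432 had at least 1 count, so a gene without counts was common. The 11 were Hoxb1 and 10 genes of paralog groups 10 to 13: Hoxa11, Hoxa13, Hoxb13, Hoxc11, Hoxc12, Hoxc13, Hoxd10, Hoxd11, Hoxd12 and Hoxd13. For each of them, 0 counts over all 6 libraries allows a level of up to 0.0704 CPM, for counting error only. All 15 genes of groups 4 to 8 were counted in every library.

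Paralog group 8 was the most abundant group, at 256 ± 44.96 CPM in sham (SD, n = 3 libraries) and 191 ± 11.6 in SCI. Group 5 came next, with 95.7 ± 29.9 and 93.5 ± 20.3 CPM, then group 7 with 58.1 ± 8.85 and 60.7 ± 14.9 CPM. These groups held most of the signal. Levels were lower in the other groups, also in group 6, which lies between groups 5 and 7. Groups 2, 3, 4 and 6 had 4.11, 24.7, 35.1 and 34.5 CPM in sham. Group 9 had 47.7 ± 4.88 CPM in sham, group 10 had 1.58 ± 0.24, and groups 11, 12 and 13 had 0. In the order 8, 5, 7, 9, 4, 6, 3, 2 and 10 by mean level, the ranges of neighbours over the 6 libraries overlapped except at 2 places. Group 8 lay above group 5 (180 to 308 against 65.7 to 125 CPM), and group 3 lay above group 2 (12.5 to 31.6 against 0.989 to 5.41 CPM). Weighted by counts, the mean paralog number was 6.84 ± 0.13 in sham and 6.74 ± 0.15 in SCI, a difference smaller than the spread between libraries.

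**Figure D1:**
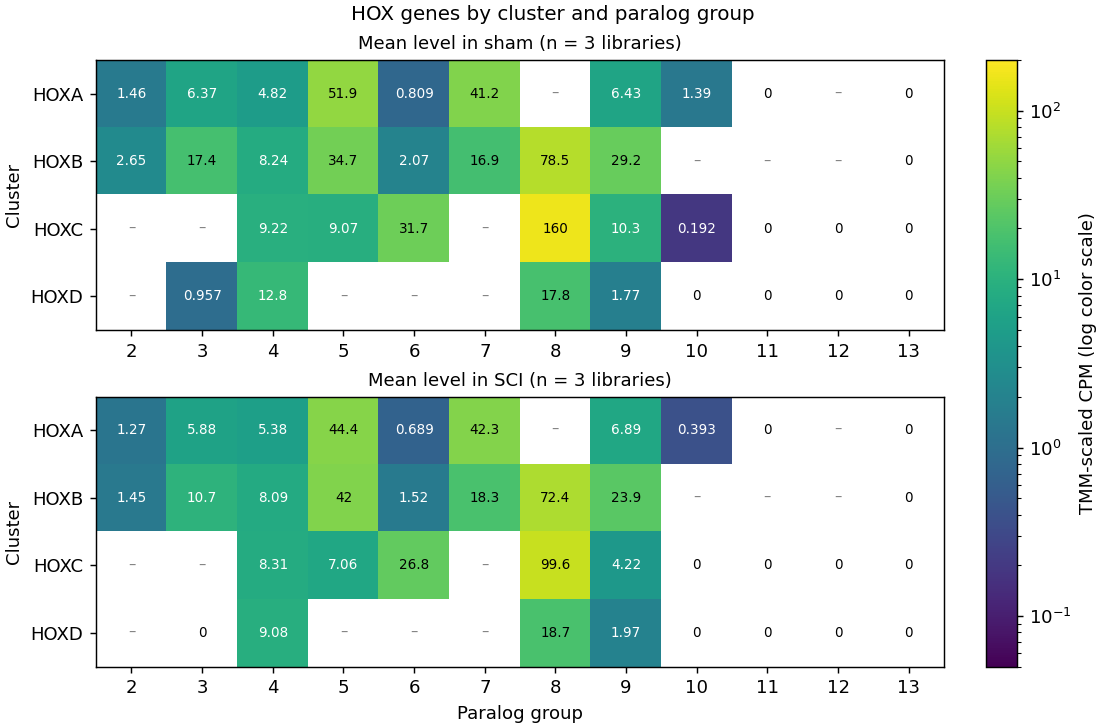
Mean TMM-scaled CPM of the HOX genes of paralog groups 2 to 13 (n = 3 libraries per group), with cluster on the vertical axis, paralog group on the horizontal axis and a log color scale. A dash marks a gene that is not in the cluster, a white cell with 0 marks a gene with no counts, Hoxc8 (160 in sham, 99.6 in SCI) is the brightest cell, and groups 11 to 13 are empty.

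Few genes carried the code. Hoxc8, Hoxb8, Hoxa5, Hoxa7 and Hoxb5 held 65.4% of the 20941 HOX counts, and Hoxc8 and Hoxb8 alone held 40.3%. By their means over the 6 libraries, those were the only HOX genes above 50 CPM, 9 others lay between 10 and 50 CPM, and 11 of the 22 tested lay below 10 CPM. The order along each cluster was not smooth. In HOXA, Hoxa6 had a mean of 0.749 CPM over the 6 libraries, between Hoxa5 at 48.2 and Hoxa7 at 41.8. Hoxa6 also had fewer annotated exonic bases, 874 against 1877 for Hoxa5 and 2876 for Hoxa7. Tags beyond an annotated 3′ end would not be counted, and the part of this in its low level was not tested. In HOXB, Hoxb6 had 1.80 CPM, between Hoxb5 at 38.4 and Hoxb7 at 17.6.

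In HOXA, Hoxa5, a gene needed for phrenic motor neurons, had 46.6, 40.2 and 68.9 CPM in sham and 52.5, 51.7 and 29.1 in SCI. Hoxa7, a trunk gene, had 41.0, 36.1 and 46.5 CPM in sham and 47.7, 48.4 and 30.8 in SCI. Both overlapped between the groups, and both were lowest in SCI 3. Hoxa7 ends over the antisense RNA Hoxaas3, which covers 100% of its last 500 exonic bases, and Hoxaas3 itself had 1.01 ± 0.58 CPM in sham and 0.927 ± 0.769 in SCI. Hoxa9, next to the boundary, had 6.29, 6.24 and 6.76 CPM in sham and 8.80, 7.92 and 3.95 in SCI, again with overlap.

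In HOXB, Hoxb8 had 82.4, 40.6 and 112 CPM in sham and 73.4, 66.4 and 77.3 in SCI. The sham libraries spread on both sides of the SCI libraries, and sham 2 was the lowest of all 6. Hoxb5 had 38.8, 21.7 and 43.5 CPM in sham and 39.8, 49.4 and 37.0 in SCI, with sham 2 again lowest. Hoxb9, the last gene of the cluster before Hoxb13, whose annotated start lies 77.141 kb from its own, had 30.1, 22.6 and 34.9 CPM in sham and 17.0, 25.9 and 28.7 in SCI. The groups of both overlapped.

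In HOXC, Hoxc8, a gene of the caudal forelimb levels, was the most abundant HOX gene, with 124, 183 and 173 CPM in sham and 87.5, 116 and 95.5 in SCI. All sham libraries were above all SCI libraries. Hoxc6, which defines forelimb motor neurons, had 33.5, 24.7 and 36.8 CPM in sham and 28.9, 34.0 and 17.6 in SCI. Hoxc4, the most anterior gene of the cluster, had 8.64, 6.05 and 12.97 CPM in sham and 10.4, 8.64 and 5.93 in SCI. The groups overlapped for both genes. Hoxc9, a repressor of forelimb identity in thoracic motor neurons, had 5.50, 16.8 and 8.65 CPM in sham and 2.53, 6.77 and 3.36 in SCI. Sham 2 was the highest, and SCI 2 was above sham 1.

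In HOXD, Hoxd8 had 17.4, 13.4 and 22.4 CPM in sham and 19.2, 21.2 and 15.8 in SCI. Hoxd4, a group 4 gene of the hindbrain and neck, had 12.8, 10.2 and 15.4 CPM in sham and 10.97, 6.77 and 9.49 in SCI. Hoxd9 had 1.05, 1.83 and 2.43 CPM in sham and 3.26, 0.864 and 1.78 in SCI, beside the 0 counts of Hoxd10. The groups overlapped for all 3 genes.

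The remaining genes with counts in every library lay below 20 CPM on average. Hoxb7, a trunk gene, had 16.9 ± 3.67 CPM in sham (SD, n = 3 libraries) and 18.3 ± 4.95 in SCI. Hoxc5, the partner of Hoxa5 in phrenic motor neurons, had 9.07 ± 4.77 and 7.06 ± 2.18 CPM, and Hoxb4 had 8.24 ± 0.47 and 8.09 ± 1.45. Hoxa3 had 6.37 ± 2.10 and 5.88 ± 1.99 CPM, Hoxa4 had 4.82 ± 1.94 and 5.38 ± 0.41, and Hoxb6 had 2.07 ± 0.79 and 1.52 ± 0.58. These differences were smaller than the spread between libraries. Antisense RNAs cover 100% of the last 500 exonic bases of Hoxa3 and Hoxb2 and 51% of those of Hoxa4.

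**Figure D2:**
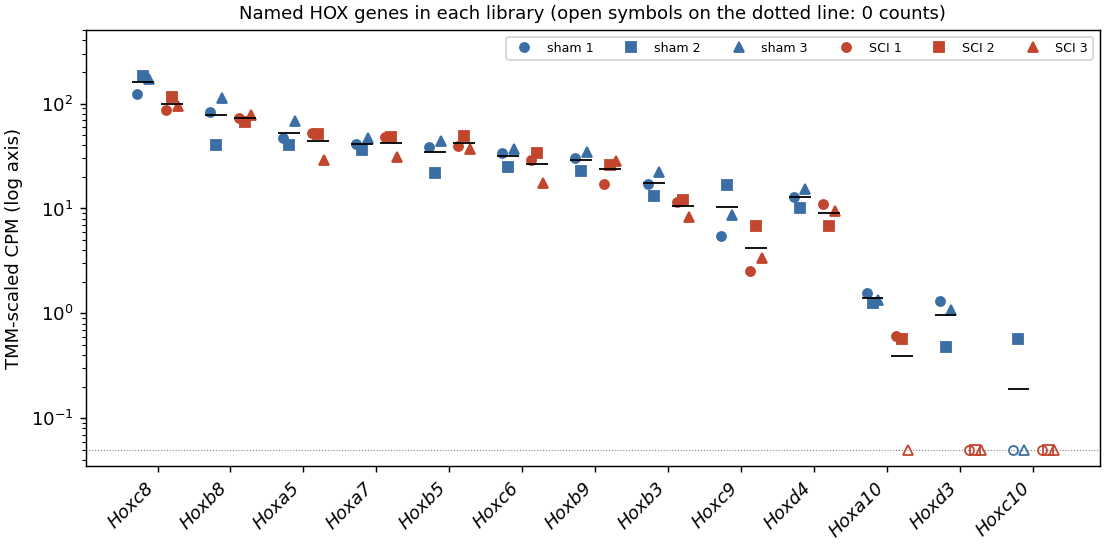
TMM-scaled CPM (log axis) of named HOX genes in each library, with a horizontal line at the mean of each group (n = 3 libraries). Hoxc8 and Hoxb3 do not overlap between sham and SCI, nor do Hoxa10 and Hoxd3, which were too low to be tested. Sham 2 (blue squares) is lowest for Hoxb8 and Hoxb5 and highest for Hoxc9.

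At the posterior end, levels dropped between paralog groups 9 and 10 in HOXA, HOXC and HOXD. HOXB has no gene of groups 10 to 12, and there the drop lay between Hoxb9 and Hoxb13. Hoxa10 had 12, 13 and 5 counts in sham and 5, 4 and 0 in SCI, next to Hoxa9 with a mean of 6.66 CPM over the 6 libraries. Hoxc10 had 6 counts, all of them in sham 2, next to Hoxc9 with 7.27 CPM. At the anterior end, Hoxd1 had 4 counts, all in SCI 1. Single genes did not split cleanly at this point: Hoxa10, at 0.892 CPM over the 6 libraries, lay near the group 6 gene Hoxa6 at 0.749 CPM. The summed level of groups 10 to 13 was far below that of groups 4 to 9, a pattern known for cord anterior to the lumbar levels, and these genes do not by themselves name a segment.

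By domain, groups 1 to 3 held 5.15% ± 0.31 of the HOX counts in sham (SD, n = 3 libraries) and 4.16% ± 0.71 in SCI. Groups 4 to 8 held 85.9% ± 0.88 and 87.7% ± 0.79, and group 9 held 8.66% ± 1.08 and 8.07% ± 1.34. Groups 10 to 13 held 0.295% ± 0.090 in sham and 0.0802% ± 0.0699 in SCI. The shares of group 9 overlapped between sham and SCI. Those of the other domains did not: groups 1 to 3 ranged from 4.86% to 5.48% in sham and from 3.34% to 4.59% in SCI, and groups 4 to 8 from 84.9% to 86.5% and from 87.2% to 88.6%. The 95% exact binomial intervals of single libraries crossed these gaps, as for groups 1 to 3 in sham 2 (4.28% to 5.49%) and SCI 2 (3.93% to 5.33%). The shares sum over genes and were given no test. Hoxb3 alone gave 130, 136 and 82 of the 202, 243 and 137 counts of groups 1 to 3 in sham. In SCI it gave 96, 84 and 42 of 178, 163 and 68. Groups 10 to 13 rested on Hoxa10, apart from the 6 counts of Hoxc10 in sham 2. The shares of a library add up to the whole, so the domains are not independent of each other.

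**Figure D3:**
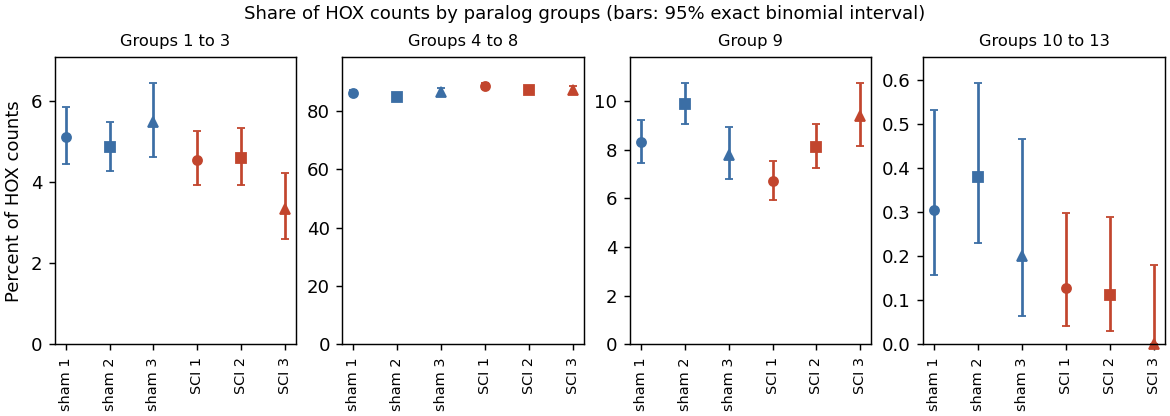
Percent of HOX counts in each domain of paralog groups, by library, with 95% exact binomial intervals that cover counting error only. Each panel has its own vertical axis starting at 0, groups 4 to 8 lie between 84.9% and 88.6% in every library, and groups 10 to 13 lie at or under 0.380%.

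The summed level of all HOX genes was 517, 481 and 676 CPM in sham and 471, 511 and 403 in SCI, and the groups overlapped. HOXC held 40.1% ± 7.57 of HOX counts in sham and 31.6% ± 2.31 in SCI, and HOXB held 33.5% ± 6.75 and 38.9% ± 3.80. HOXA held 20.5% ± 0.42 and 23.0% ± 4.03, and HOXD held 5.94% ± 0.48 and 6.52% ± 0.80. Sham 2 stood apart, with 48.8% of its HOX counts in HOXC and 25.7% in HOXB, where the other sham libraries had 35.3% and 36.1% in HOXC and 37.9% and 36.9% in HOXB. Without sham 2 the other sham libraries were still above the SCI range of 29.3% to 33.9% for HOXC. Most of the HOXC level came from 1 gene, Hoxc8. It made up 124, 183 and 173 of the 183, 235 and 244 CPM of HOXC in sham. In SCI it made up 87.5, 116 and 95.5 of 138, 173 and 127 CPM. No share was computed without Hoxc8, so the values do not show a difference of the whole cluster.

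Of the 39 genes, 22 passed the filter on low counts and were tested between SCI and sham in the fit over all genes. None was called by edgeR's quasi-likelihood test at an adjusted p under 0.05, where 0.929% of all genes were called in either direction, 0.885% higher and 0.0442% lower. At an unadjusted p under 0.05, 3 genes passed (Hoxc8, Hoxc9 and Hoxb3), all with lower values in SCI, where 7.38% of all genes passed in either direction and 3.11% lower. DESeq2's Wald test and limma voom called none of the 22 either, where they called 1.12% and 0.833% of all genes. Log2 fold changes were negative for 15 genes and positive for 7, so 68.2% were negative against 50.3% of all genes tested, and their median was -0.10 against -0.00 over all genes. Leaving out sham 3 moved the median to 0.04 and leaving out SCI 3 to 0.0016, while leaving out SCI 1 gave -0.28 and leaving out sham 2 gave -0.35, so its sign and size rested on single libraries. Hoxc8 and Hoxb3 were the tested genes whose groups did not overlap, 2 of 22 (9.09%), both lower in SCI, where 5.94% of all genes were lower without overlap. No HOX gene was higher without overlap, where 7.73% of all genes were.

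The precision differed between genes. Standard errors of the log2 fold change ran from 0.20 to 0.55, and the 95% interval lay within a change of 1 in either direction for 13 of the 22 genes. These included Hoxa5 (-0.73 to 0.32), Hoxa7 (-0.38 to 0.49), Hoxb5 (-0.21 to 0.81), Hoxb8 (-0.69 to 0.48), Hoxc6 (-0.73 to 0.30) and Hoxd8 (-0.39 to 0.60). For the other 9 genes the interval reached a change of 1 or more, among them Hoxd9 (-0.93 to 1.41), Hoxc8 and Hoxc9.

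**Figure D4:**
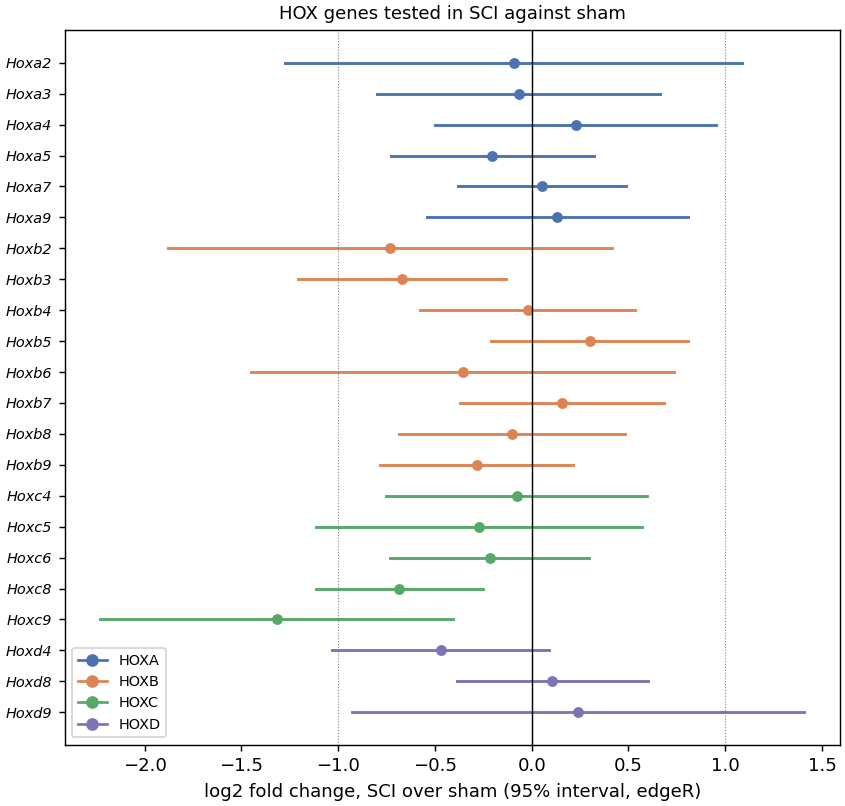
Log2 fold change of SCI over sham for the 22 HOX genes tested, as points with 95% intervals from edgeR, colored by cluster, with dotted lines at a change of 1 in either direction. The intervals of Hoxc8, Hoxc9 and Hoxb3 lie below 0, and the other 19 cross 0.

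Hoxc8 had a log2 fold change of -0.68 ± 0.20 (SE; 95% interval -1.11 to -0.25; edgeR quasi-likelihood test, adjusted p = 0.240). The value lay between -0.85 and -0.58 with any single library left out. It was called only when the level of liver transcripts entered the fit as a covariate (-0.68 ± 0.15, edgeR adjusted p = 0.0169; 0.199% of all genes were called lower there), and its adjusted p ranged from 0.0877 to 0.708 under the other alternatives. No other annotated gene shares exonic bases with Hoxc8. In bulk tissue, fewer cells that express a gene and less RNA per cell cannot be told apart. The summed level of 7 motor neuron markers was 148 to 186 CPM in sham and 120 to 151 in SCI, and none of the 7 passed the test; the 12 neuron markers together had 4314 to 6243 CPM in sham and 4933 to 4995 in SCI, also with 0 calls. All 5 erythroid markers were called higher, where 0.885% of all genes were called higher and 0.0442% lower. Their summed level was 608 to 837 CPM in sham and 1578 to 4270 CPM in SCI. The part of these cell types in the Hoxc8 difference was not tested.

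Hoxc9 had a log2 fold change of -1.32 ± 0.43 (SE; edgeR quasi-likelihood test, adjusted p = 0.333). Without sham 2, where Hoxc9 was highest, the value was -0.71 (edgeR adjusted p = 0.679). It was called only when no filter on low counts was used (edgeR adjusted p = 0.00532, where 0.195% of all genes were called lower), and its adjusted p ranged from 0.155 to 0.750 under the other alternatives. Hoxb3, a gene of hindbrain and neck levels, had 17.0, 13.1 and 22.2 CPM in sham and 11.6, 12.1 and 8.31 in SCI, with a log2 fold change of -0.67 ± 0.25 (edgeR quasi-likelihood test, adjusted p = 0.479). The antisense RNA Hoxb3os covers 98.6% of the last 500 exonic bases of Hoxb3, and the strand setting of the counting is not given in the sources used here. Hoxb3os had 4.19 ± 0.13 CPM in sham and 4.33 ± 1.59 in SCI.

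Among genes too low to be tested, Hoxd3 and Hoxa10 also had sham libraries that were all above the SCI libraries. The shares without overlap given above cover tested genes only. None was computed for genes this low, so how often low counts separate in this way is not known here. Hoxd3 had 10, 5 and 4 counts in sham and 0 in each SCI library. Its ratio of depth-scaled counts, SCI over sham, had a 95% exact interval of 0 to 0.240, for counting error only. Without a filter on low counts its edgeR adjusted p was 0.0582. Hoxd3 shares 62.3% of its exonic bases with genes on its own strand, Hoxd4 among them, although none of its last 500, so its counts are uncertain. Hoxa10, a lumbar gene, had 30 counts over the sham group and 9 over the SCI group. The ratio of depth-scaled counts was 0.337 (95% exact interval 0.141 to 0.727, counting error only), and without a filter its edgeR adjusted p was 0.650.

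Ratios of paralogs within a library do not depend on scaling between libraries. Hoxc8 over Hoxb8 was 1.51, 4.50 and 1.54 in sham and 1.19, 1.74 and 1.235 in SCI, so sham 2 stood apart and the other sham libraries lay inside the SCI range. Hoxc9 over Hoxb9 was 0.183, 0.745 and 0.248 in sham and 0.149, 0.261 and 0.117 in SCI, with the same library apart. Hoxc8 over Hoxd8 was 7.14, 13.6 and 7.70 in sham and 4.57, 5.46 and 6.04 in SCI, and here all sham libraries were above all SCI libraries. Hoxc9 over Hoxa9 was 0.875, 2.69 and 1.28 in sham and 0.288, 0.855 and 0.850 in SCI, where the gap between sham 1 and SCI 2 was smaller than the counting intervals. Sham 2 also had the highest share of liver transcripts and the highest summed level of 8 markers of sensory ganglion neurons. That sum was 58.5 CPM against 25.7 and 39.02 in the other sham libraries and 24.0 to 36.8 in SCI. Calca alone made up 49.9 CPM of it in sham 2. Scn10a and Mrgprd were highest in SCI 2, and the other markers were highest in sham 2, at low levels except for Calca. Isl1, 1 of the 8, is also among the motor neuron markers. In other marker lists, sham 2 was the lowest of the 6 libraries for neurons (4314 CPM) and astrocytes (1623 CPM). It was the highest for ependyma (690 CPM) and mural cells (846 CPM). The part of liver, ganglion or any of these cell types in the HOX ratios of sham 2 was not tested.

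**Figure D5:**
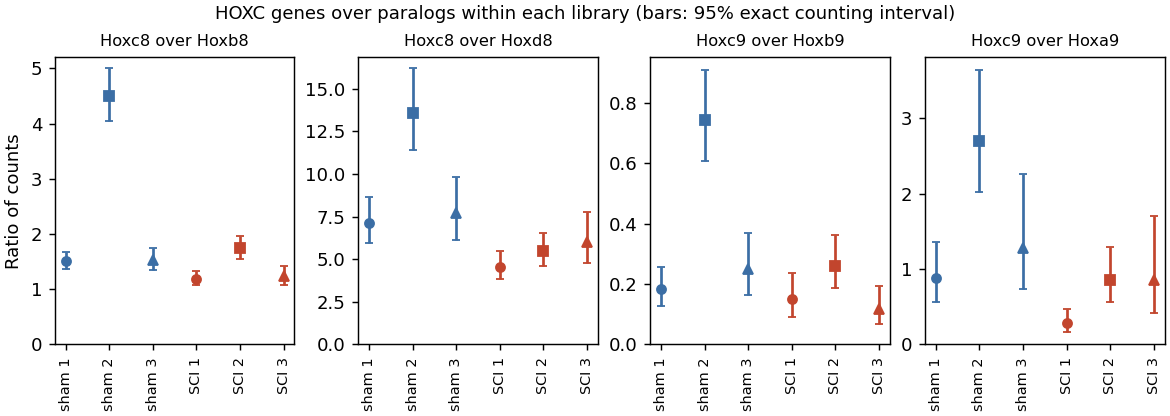
Ratio of counts of a HOXC gene to a paralog from another cluster in each library, with 95% exact counting intervals and a vertical axis from 0 in each panel. Sham 2 is the highest library in all panels, and Hoxc8 over Hoxd8 ranges from 7.14 to 13.6 in sham and from 4.57 to 6.04 in SCI.

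The clusters and their flanks hold 47 other annotated genes, most of them antisense or other noncoding RNAs. Counts were found for 18, and 5 were tested, none of which was called by edgeR, where 0.929% of all genes were called. Hoxd3os1, an RNA antisense to HOXD, had 12.1 ± 3.72 CPM in sham and 12.6 ± 4.08 in SCI, a level near that of Hoxd4.

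HOX proteins bind DNA with TALE cofactors of the PBX, MEIS and PKNOX families, and all 9 of these genes were tested with 0 calls. The share called over all genes was 0.929%, in either direction. Meis1 had 15.2 ± 1.54 CPM in sham and 11.7 ± 2.75 in SCI, and Pknox1 had 22.1 ± 2.15 and 26.4 ± 5.64. The median log2 fold change of the 9 genes was -0.08, against -0.00 over all genes.

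Of 24 genes that act upstream of HOX expression (among them genes of retinoic acid synthesis, binding and receptors, CDX factors, Gdf11 and Egr2), 18 were tested and 1 was called. Of all genes tested, 0.929% were called in either direction. Egr2, a zinc finger gene that activates Hoxb2 and Hoxa2 in the hindbrain and is also a myelin regulator of Schwann cells and an immediate early gene, had 0.262, 0.576 and 0 CPM in sham and 5.67, 4.46 and 2.77 in SCI. It rose by 3.56 ± 0.60 on the log2 scale (edgeR quasi-likelihood test, adjusted p = 0.00554), and the edgeR adjusted p was 0.0581 without sham 1 and 0.0502 without SCI 1. The summed level of the 5 Schwann cell markers, Egr2 among them, was 73.0 to 148 CPM in sham and 140 to 168 in SCI, and their part in the Egr2 difference was not tested. Its hindbrain targets did not pass: Hoxa2 had 1.46 ± 0.35 CPM in sham and 1.27 ± 0.67 in SCI, and Hoxb2 had 2.65 ± 0.99 and 1.45 ± 0.91. Crabp2, a retinoic acid carrier, had 1.73 ± 0.83 CPM in sham and 4.23 ± 1.21 in SCI (edgeR adjusted p = 0.428), and Stra6, a retinol transporter, had 2.22 ± 0.49 and 4.82 ± 1.53 (edgeR adjusted p = 0.419). Cdx1, Cdx2, Cdx4 and Cyp26c1 had 0 counts.

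Polycomb and trithorax proteins hold HOX genes silent or active. Of 29 such genes 27 were tested and 1 was called, where 0.929% of all genes were called. Kdm6b, a demethylase that removes the Polycomb mark from histone H3, had 8.12, 11.05 and 7.84 CPM in sham and 29.3, 21.6 and 24.7 in SCI. It rose by 1.46 ± 0.23 on the log2 scale (edgeR quasi-likelihood test, adjusted p = 0.00302) and kept its call with any single library left out. Cbx7, a Polycomb subunit, had 9.77 ± 2.62 CPM in sham and 4.28 ± 2.40 in SCI (log2 fold change -1.15 ± 0.38, edgeR adjusted p = 0.363), and was called only when no filter was used (edgeR adjusted p = 0.0388, other alternatives 0.172 to 0.709). Phc3, also a Polycomb subunit, had 27.1 ± 5.62 and 19.2 ± 3.67 CPM. The median log2 fold change over the 27 genes was -0.08.

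Motor column genes, which act with or under HOX factors in motor neurons, were tested in all 17 matched cases. Of these, 1 was called, where 0.929% of all genes were called. Pou3f1, which marks forelimb motor pools and is also expressed in other neurons and in Schwann cells, had 16.8, 12.1 and 11.1 CPM in sham and 33.6, 39.7 and 36.0 in SCI. It rose by 1.44 ± 0.21 on the log2 scale (edgeR quasi-likelihood test, adjusted p = 0.00184) and was also called with any single library left out. Runx1 had 2.50 ± 0.99 CPM in sham and 5.13 ± 0.36 in SCI, and Lhx3 had 1.02 ± 0.32 and 1.95 ± 0.35, and neither passed. The median log2 fold change of the 17 genes was 0.03.

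From the other end of the axis, 15 genes of the forebrain and midbrain, where HOX genes are silent, were looked up. Of these, 7 had 0 counts in all libraries, among them Emx1, Emx2, Otx1, Otx2, Six3 and Dlx2, and 8 had counts. Over all genes, 21524 of 43432 had a count, so a gene without counts was common. The 0 counts therefore cannot serve as a check of position. Of the 15 genes, only Lhx2 and En1 were abundant enough to be tested, and neither was called. The En1 level was 4.51 ± 2.07 CPM in sham and 4.79 ± 1.244 in SCI, and that gene is also known from spinal interneurons. The Lhx2 level was 2.64 ± 1.80 CPM in sham and 2.68 ± 0.58 in SCI.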

How the data were processed

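RNA of 3 sham and 3 SCI mice was measured with the Lexogen QuantSeq Forward kit from 1 µg of RNA, with single-end reads of 50 bases, per the labels. The authors deposited whole-number read counts per gene, not normalized. Reads were aligned with STAR 2.7.2b to mm10 with Ensembl 96 annotation, per the labels, and DESeq2 1.24.0 is among the tools of the submitters' processing notes. For the counting tool, its strand setting and its treatment of multiple matches, nothing is stated in the labels. Overlapping and antisense genes are therefore uncertain.

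The genes and lists described were chosen with earlier results of these data known. Genes passing filterByExpr (13560 of 21524 with a count) were scaled by TMM and tested with edgeR's quasi-likelihood F test (edgeR 4.0.16, R 4.3.3, robust, prior count 0.125), with Benjamini-Hochberg adjustment over all genes and calls under 0.05. The standard error is the absolute log2 fold change over the square root of F. DESeq2 1.42.0, limma voom 3.58.1, other scalings and filters, a covariate and left-out libraries were alternatives. The procedure was tested on simulated data. Named with values in each library were the 3 most abundant genes of each cluster, members of groups 9 to 13 with more than 3 counts in a library, genes whose groups did not overlap, and genes called under any alternative. From each list, called genes and the 3 with the smallest p were named. Some items that these rules name are not reported here. The other genes named illustrate the code and were chosen after their values were seen. Positions, overlaps and UTRs came from GENCODE M21 on GRCm38, and promoters and microRNAs from RefSeq on GRCm38.p6. A count of 3, the limit that 0 counts allow, was 0.260 to 0.880 CPM per library. The labels name 3 mice per group, and no libraries were duplicates (chi-square per degree of freedom 6.97 to 38.0).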

Additional observations from a re-analysis of the deposited data

How the results depend on the processing

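The 22 HOX genes tested gave 0 calls under every alternative except 2: 1 call (Hoxc9) without a filter on low counts and 1 call (Hoxc8) with the liver covariate. Over all genes, the 120 higher calls became 182 without a filter, 64 with at least 10 counts in every library and 212 with the liver covariate, and ranged from 62 to 132 with a library left out. The 6 lower calls became 42 without a filter, 2 with at least 10 counts, 11 with DESeq2 and 27 with the covariate, and ranged from 1 to 14 with a library left out. Of the 28 HOX genes with counts, 8 had a higher mean in SCI, with a range of 4 to 13 when a library was left out.

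Log2 fold changes near 0 changed sign. With other settings Hoxb4 was 0.0026 on total counts, limma voom gave 0.0067 for Hoxb8, 0.054 for Hoxc4 and 0.017 for Hoxc5, and Lhx2 was 0.23 with the covariate. With a library left out the ranges were -0.54 to 0.18 for Hoxa2, -0.36 to 0.13 for Hoxa3, -0.37 to 0.042 for Hoxa5, -0.054 to 0.22 for Hoxa7, -0.085 to 0.38 for Hoxa9, -0.16 to 0.11 for Hoxb4, -0.43 to 0.24 for Hoxb8, -0.33 to 0.21 for Hoxc4, -0.70 to 0.039 for Hoxc5, -0.075 to 0.29 for Hoxd8, -0.40 to 0.60 for Hoxd9, -0.37 to 0.59 for Lhx2 and -0.24 to 0.55 for En1. The cause was not tested.

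With the replicate number as a block, 81 genes were higher, 1 was lower, no HOX gene was called and Lhx2 was 0.061. Libraries with the same number deviated with correlations of -0.092, -0.073 and -0.183, and no sample correlated best with its own number. These correlations use deviations from means of only 3 libraries, so they cannot exclude a shared batch. Whether the numbers pair the samples is not stated in the labels.

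Depth limits the genes of groups 1 and 10, which rest on 45 counts or fewer. It also limits Hoxd3 (19 counts in sham, 0 in SCI) and Hoxa6 (18 and 14), which were not tested. Tested genes with few counts, such as Hoxa2 (30 and 28), are limited by depth too. The 3 mice per group limit all comparisons of SCI with sham.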
